A study of Mus musculus with 8 samples.

Results

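The 9 complement genes described here were followed in the mouse dorsomedial hypothalamus after knockdown of Ppp1r17: C1qa, C1qb, C1qc, C2, C4b, C3, C3ar1, C5ar1 and Serping1. They were taken by symbol, as 9 of the 55487 Ensembl genes in the tables, and all 9 were among the 17339 genes that passed the filter on low counts. The tissue, marked LMD DMH in the sample names, carried a short hairpin RNA against Ppp1r17 in the shPpp1r17 group and a hairpin against firefly luciferase, a gene that mice lack, in the shfLuc group, with 4 libraries each. Ppp1r17 encodes an inhibitor of protein phosphatases that is expressed by neurons of this nucleus. The labels give no age, sex, strain, vector or promoter for the hairpins, and do not say whether each library is a separate animal, so the p-values reflect variation among these libraries alone, part of which may be technical.

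Complement is a cascade of proteins that tags targets for removal. In the classical pathway C1q, built from the products of C1qa, C1qb and C1qc, binds a target, and the attached proteases cleave C4 and C2 into an enzyme that cleaves C3. Cleaved C3 coats the target, and the small fragments of C3 and C5 signal through the receptors encoded by C3ar1 and C5ar1. Serping1 encodes the inhibitor of the C1 proteases. In the brain microglia are the main source of C1q, astrocytes and other cells can make C3 and C4, and C1q and C3 take part in the removal of synapses in development and disease.

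Library totals ran from 25637389 to 33907984 estimated reads in shPpp1r17 and from 23070147 to 25749643 in shfLuc. Ppp1r17 was at 87.1, 2.07, 3.09 and 87.5 CPM (reads scaled to a common library total) in shPpp1r17 1 to 4, against 148, 162, 162 and 169 CPM in shfLuc 1 to 4, so that all shPpp1r17 libraries were below all shfLuc libraries and libraries 2 and 3 were far lower than 1 and 4. On the log2 scale the fitted difference was -1.83 (SE 0.80), which did not pass in edgeR (adjusted p = 0.197). The 8 markers fixed for the dorsomedial and tuberal hypothalamus, Ppp1r17 among them, were detected in all libraries. They summed to 477 to 667 CPM in shPpp1r17 and 653 to 693 CPM in shfLuc, so the fall of Ppp1r17 itself is part of these sums. Of the 8 markers 2 passed the threshold as higher (Nts and Cartpt) and 1 as lower (Prlr). Brs3 did not pass, with a log2 fold change of -1.18 (edgeR adjusted p = 0.0910). It stood at 33.8, 7.26, 8.44 and 29.5 CPM in shPpp1r17 1 to 4, below all shfLuc libraries (39.4 to 51.5 CPM). Libraries 2 and 3 of shPpp1r17 stand apart from 1 and 4 in several of the results that follow.

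The genes of C1q, C3 and C4b rose in shPpp1r17. In the quasi-likelihood test of edgeR 5 of the 9 genes passed the threshold (adjusted p under 0.05), all higher in shPpp1r17, and 4 did not pass. Among all tested genes 6.06% passed in either direction and 3.39% passed as higher. The fitted log2 fold changes of the 9 genes ran from 0.34 to 1.84, all above 0, with a median of 0.97 beside a median of 0.00427 over all genes tested. For 4 of the 9 genes (C1qa, C1qb, C1qc and C3) every shPpp1r17 library was above every shfLuc library in CPM, as it was for 7.05% of all tested genes.

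**Figure D1:**
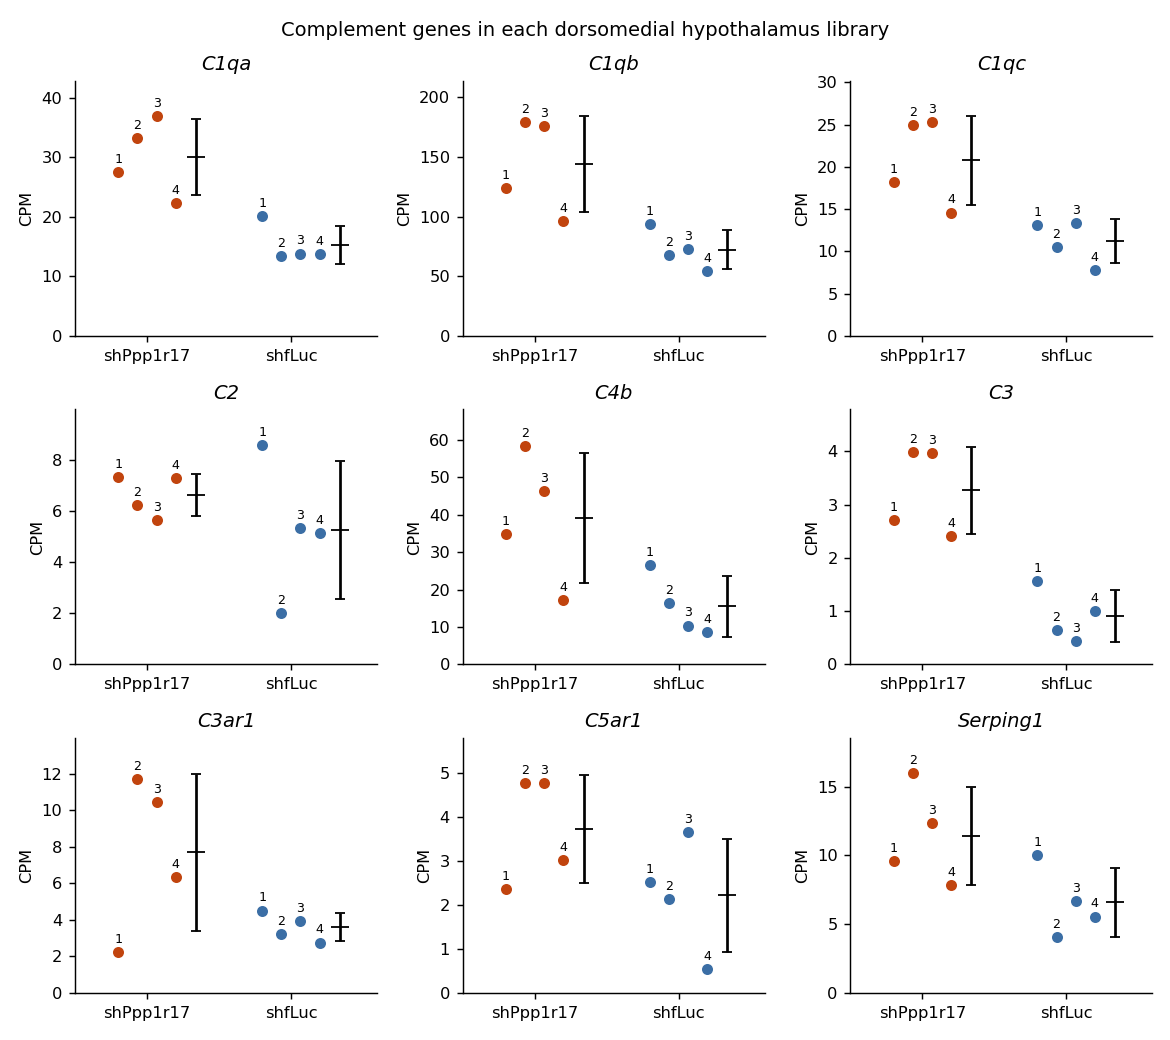
CPM of each of the 9 complement genes in every library, with shPpp1r17 on the left and shfLuc on the right of each panel; points are libraries, numbered as in the labels, and bars give the mean and SD (n = 4). The groups do not overlap for C1qa, C1qb, C1qc and C3, and shPpp1r17 2 and 3 are the highest libraries for every gene but C2.

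The 3 C1q genes lie side by side on the minus strand of chromosome 4, within 18675 bases (136880129 to 136898803 in GRCm38, GENCODE M21, which need not be the authors' build). C1qa (ENSMUSG00000036887) encodes the A chain. It stood at 27.5, 33.2, 36.9 and 22.4 CPM in shPpp1r17 1 to 4, and at 20.1, 13.5, 13.8 and 13.8 CPM in shfLuc 1 to 4. The lowest shPpp1r17 library was above the highest shfLuc library, and shfLuc 1 stood above the other shfLuc libraries. The mean was 30.0 ± 6.41 CPM in shPpp1r17 and 15.3 ± 3.18 CPM in shfLuc (SD, n = 4 each), a log2 fold change of 0.97 (SE 0.17, edgeR adjusted p = 0.0114), or 1.97-fold.

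C1qb (ENSMUSG00000036905) encodes the B chain and was the most abundant of the 9 genes. It stood at 124, 179, 176 and 96.5 CPM in shPpp1r17 1 to 4, and at 93.8, 67.5, 73.1 and 54.6 CPM in shfLuc 1 to 4. The groups met closely, between shPpp1r17 4 and shfLuc 1, without overlap. C1qb averaged 144 ± 40.4 CPM in shPpp1r17 and 72.3 ± 16.3 CPM in shfLuc (SD, n = 4 each), with a log2 fold change of 0.998 (SE 0.19, edgeR adjusted p = 0.0141). C1qc (ENSMUSG00000036896), the gene of the C chain, stood at 18.2, 24.9, 25.3 and 14.6 CPM in shPpp1r17 1 to 4, and at 13.1, 10.5, 13.4 and 7.81 CPM in shfLuc 1 to 4. As for the other chains, shPpp1r17 2 and 3 were highest and shPpp1r17 4 was just above the highest shfLuc library. The log2 fold change of C1qc was 0.89 (SE 0.20, edgeR adjusted p = 0.0233).

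The promoters of C1q genes and of C3 are shown because these genes were separated between the groups. The sequences are from RefSeq (GRCm38.p6), whose promoter table matched 5 of the 9 genes (C1qb, C1qc, C3, C3ar1 and C5ar1, but not C1qa, C2, C4b or Serping1), and run from 250 bases before to 50 after the annotated start, 5′ to 3′ on the minus strand, at chr4:136886151-136886450 for C1qb, chr4:136892865-136893164 for C1qc and chr17:57228087-57228386 for C3. Capitals mark matches to 6 motifs, searched on both strands: GAGGAA (the core bound by PU.1, a factor of myeloid cells), TTGCNNAA (C/EBP), TGANTCA (AP-1), TTCNNNGAA (STAT), AANNGAAA (IRF) and GGGNNTNCC (NF-kappa-B).
C1qb: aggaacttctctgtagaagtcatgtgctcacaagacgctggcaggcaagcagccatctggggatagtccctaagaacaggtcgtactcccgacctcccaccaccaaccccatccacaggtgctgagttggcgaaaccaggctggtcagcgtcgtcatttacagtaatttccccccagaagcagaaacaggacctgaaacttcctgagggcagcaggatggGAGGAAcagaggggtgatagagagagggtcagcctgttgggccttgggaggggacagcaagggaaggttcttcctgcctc
C1qc: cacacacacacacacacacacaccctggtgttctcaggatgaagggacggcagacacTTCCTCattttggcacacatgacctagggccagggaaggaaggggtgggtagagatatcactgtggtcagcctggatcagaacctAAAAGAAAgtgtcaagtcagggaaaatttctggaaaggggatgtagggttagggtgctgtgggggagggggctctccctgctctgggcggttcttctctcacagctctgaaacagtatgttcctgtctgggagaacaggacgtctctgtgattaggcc
C3: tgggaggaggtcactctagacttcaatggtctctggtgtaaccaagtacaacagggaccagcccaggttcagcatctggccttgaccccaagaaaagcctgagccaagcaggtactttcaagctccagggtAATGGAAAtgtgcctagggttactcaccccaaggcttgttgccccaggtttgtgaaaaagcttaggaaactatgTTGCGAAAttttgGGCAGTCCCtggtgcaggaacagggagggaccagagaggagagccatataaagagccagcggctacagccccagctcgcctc

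The PU.1 core was matched in the C1qb window at bases 221 to 226, counted from its 5′ end, and in the C1qc window at bases 58 to 63 on the opposite strand. It was present in 28.3% of the 32851 promoters in the table and in 2 of the 5 promoters of these genes. The C3 window held a C/EBP match at bases 206 to 213, a motif found in 10.8% of promoters, an NF-kappa-B match on the opposite strand at bases 219 to 227 (16.4% of promoters) and an IRF match at bases 132 to 139. The IRF motif was also matched in the windows of C1qc, at bases 143 to 150, and of C3ar1, and in 23.9% of all promoters. The AP-1 motif was matched in that of C3ar1 and in 7.81% of all promoters. No window held the STAT motif (8.30% of all promoters), and that of C5ar1 held none of the 6. No matched positions overlap one another, and a match describes letters, not a site in use.

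C3 had the largest fold change of the 9 genes from few reads. C3 (ENSMUSG00000024164; chromosome 17, 57203970 to 57228136) encodes the central protein on which all complement pathways converge. It had 70, 102, 109 and 82 estimated reads in shPpp1r17 1 to 4, and 36, 15, 10 and 26 in shfLuc 1 to 4, or 2.71, 3.98, 3.96 and 2.42 CPM against 1.56, 0.640, 0.431 and 1.01 CPM. All shPpp1r17 libraries were above all shfLuc libraries, with shfLuc 1 the nearest to them. C3 averaged 3.27 ± 0.82 CPM in shPpp1r17 and 0.910 ± 0.495 CPM in shfLuc (SD, n = 4 each), a log2 fold change of 1.84 (SE 0.38, edgeR adjusted p = 0.0177), or 3.58-fold. On log2(TPM + 1) in limma it was 0.84 (adjusted p = 0.0296), since the pseudocount shrinks the fold of a gene at this level.

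C4b and C2 belong to the enzyme that cleaves C3, and they lie near each other on chromosome 17. C4b (ENSMUSG00000073418; 34728380 to 34743882) stood at 34.8, 58.3, 46.2 and 17.2 CPM in shPpp1r17 1 to 4, and at 26.5, 16.3, 10.4 and 8.66 CPM in shfLuc 1 to 4. The groups overlapped, because shPpp1r17 4 lay below shfLuc 1. The log2 fold change was 1.34 (SE 0.36) with an edgeR adjusted p of 0.0455, close to the threshold. C4b did not pass in DESeq2 (adjusted p = 0.0529), limma voom (0.0772), limma on log2(TPM + 1) (0.0657) or edgeR with robust dispersion (0.175). Reads of C4b and its near-identical neighbour C4a may be shared in ways the counting cannot separate. C4a had 0.83 (SE 0.68, edgeR adjusted p = 0.513), from 19, 21, 42 and 5 reads in shPpp1r17 1 to 4 and 13, 2, 17 and 11 in shfLuc 1 to 4.

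C2 (ENSMUSG00000024371; 34862604 to 34898265) showed no such separation. It stood at 7.33, 6.24, 5.64 and 7.29 CPM in shPpp1r17 1 to 4, and at 8.58, 2.01, 5.34 and 5.14 CPM in shfLuc 1 to 4. All shPpp1r17 values lay within the range of shfLuc, whose library 2 was low. The log2 fold change was 0.34 (SE 0.32, edgeR adjusted p = 0.576), and it was 0.07 without shfLuc 2 and 0.67 without shfLuc 1. The C2 locus overlaps the genes Gm20547, on the same strand, and Zbtb12, on the other. Gm20547 had at most 10 reads and Zbtb12 at most 20 in a library.

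The genes of the receptors and of the C1 inhibitor did not pass the threshold. C3ar1 (ENSMUSG00000040552), the receptor gene for the C3 fragment, stood at 2.25, 11.7, 10.4 and 6.34 CPM in shPpp1r17 1 to 4, and at 4.51, 3.24, 3.92 and 2.76 CPM in shfLuc 1 to 4. Libraries 2, 3 and 4 of shPpp1r17 were above all shfLuc libraries, while shPpp1r17 1 was below all of them. The log2 fold change was 1.09 (SE 0.39, edgeR adjusted p = 0.112). It became 1.40 (edgeR adjusted p = 0.00752) without shPpp1r17 1, and 0.26 (edgeR adjusted p = 0.820) without both shPpp1r17 2 and 3. DESeq2 on all libraries gave an adjusted p of 0.0299.

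C5ar1 (ENSMUSG00000049130), the receptor gene for the C5 fragment, stood at 2.37, 4.76, 4.76 and 3.01 CPM in shPpp1r17 1 to 4, and at 2.51, 2.13, 3.66 and 0.544 CPM in shfLuc 1 to 4. The groups overlapped, with shPpp1r17 2 and 3 above all shfLuc libraries. Its log2 fold change was 0.76 (SE 0.43, edgeR adjusted p = 0.323), and 0.43 without shfLuc 4, where 14 reads were counted. Serping1 (ENSMUSG00000023224) stood at 9.58, 16.0, 12.3 and 7.82 CPM in shPpp1r17 1 to 4, and at 10.01, 4.10, 6.68 and 5.55 CPM in shfLuc 1 to 4. Again shPpp1r17 2 and 3 were above all shfLuc libraries, and shPpp1r17 1 and 4 were below shfLuc 1. The log2 fold change was 0.80 (SE 0.27, edgeR adjusted p = 0.0976). It passed in DESeq2 (adjusted p = 0.0292), and in edgeR without shfLuc 1 (adjusted p = 0.0324) or without shPpp1r17 4 (adjusted p = 0.0455).

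The calls, more than the fold changes, moved when a single library was left out. Of the 9 genes edgeR called 0 without shfLuc 2 and 0 without shfLuc 3 (7 and 8 at an unadjusted p under 0.05), where DESeq2 called 4 and 4 and limma voom 0 and 0. Over all genes edgeR also called 0 in both of these fits (3309 and 3146 at an unadjusted p under 0.05), DESeq2 called 1211 and 1160, and limma voom 0 and 0. The log2 fold changes without shfLuc 2 and without shfLuc 3 were 0.92 and 0.93 for C1qa, 0.97 and 0.999 for C1qb, and 1.70 and 1.61 for C3. EdgeR called 1 of the 9 without shfLuc 4 (C1qa), 2 without shPpp1r17 2 (C1qa and C1qb), and 1 without shPpp1r17 3 (C1qa), where it called 287, 310 and 196 of all genes, against 1050 with every library. Over the 8 fits that each left out 1 library the log2 fold change ran from 0.85 to 1.13 for C1qa, from 0.88 to 1.15 for C1qb, from 0.76 to 1.03 for C1qc, from 1.09 to 1.73 for C4b and from 1.61 to 2.22 for C3. Without both shPpp1r17 2 and 3 edgeR called 0 of the 9 and 37 of all genes. In that fit 4 of the 9 had an unadjusted p under 0.05, as did 2315 of the 18037 genes tested. DESeq2 called 2 of the 9 and 400 of all genes, and limma voom 0 of the 9 and 56 of all genes. The log2 fold changes were then 0.70 for C1qa, 0.61 for C1qb, 0.55 for C1qc, 0.75 for C4b and 1.49 for C3.

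Levels per length, in TPM (length-normalised transcript abundance, as deposited), order the genes within the tissue. In shPpp1r17 the medians were 220 TPM for C1qb, 51.2 for C1qa, 30.8 for C1qc, 16.998 for C4b, 9.70 for Serping1, 7.39 for C2, 2.42 for C3ar1, 2.06 for C5ar1 and 1.58 for C3. In shfLuc they were 112 TPM for C1qb, 25.1 for C1qa, 17.5 for C1qc, 8.11 for C2, 6.95 for C4b, 5.61 for Serping1, 1.30 for C5ar1, 1.14 for C3ar1 and 0.338 for C3. C1qb, C1qa and C1qc kept the top of the order and C3 the bottom in both groups. C4b stood above C2 and Serping1 in shPpp1r17, and between them in shfLuc, where its range overlapped both. In shPpp1r17 the ranges of neighbours overlapped from C1qc down to C2 and from C3ar1 down to C3, so those places are not separated by the spread between libraries.

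**Figure D2:**
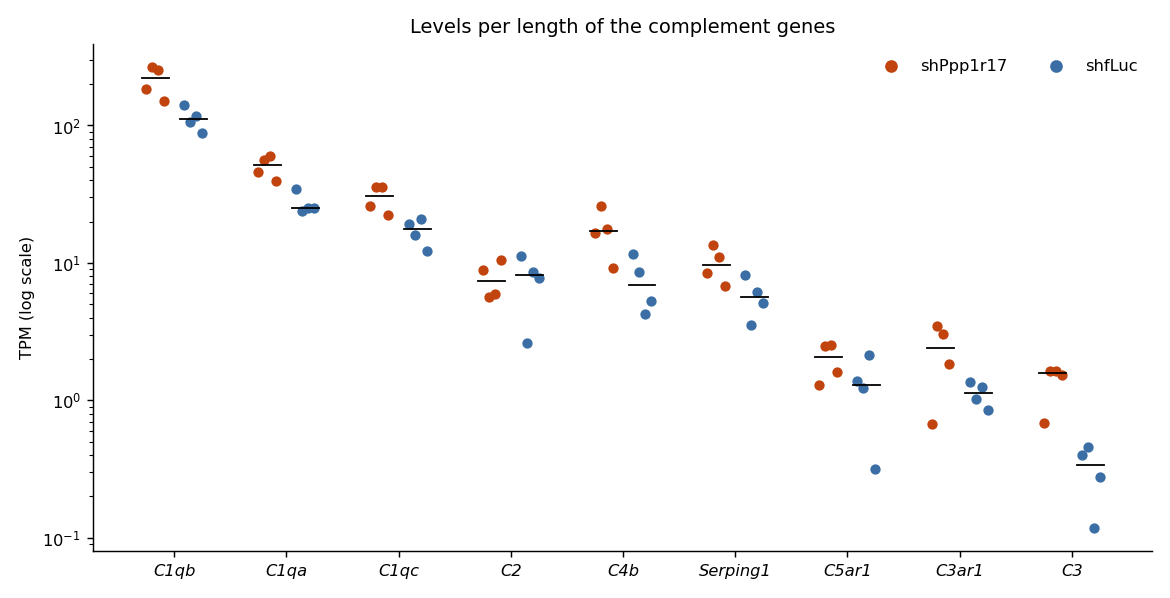
TPM on a log axis for each gene, in the order of the shfLuc medians, with shPpp1r17 to the left of shfLuc; points are libraries 1 to 4 from left to right and lines are medians. C1qb is highest and C3 lowest in both groups, and the shPpp1r17 values of C3 lie above all shfLuc values.

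The proportions among the C1q genes overlapped between the groups. The ratio of C1qb to C1qa in TPM was 4.01, 4.72, 4.21 and 3.78 in shPpp1r17 1 to 4, and 4.12, 4.45, 4.68 and 3.52 in shfLuc 1 to 4. The ratio of C1qa to C1qc ran from 1.57 to 1.78 in shPpp1r17 and from 1.20 to 2.05 in shfLuc. The range of C1qa to C1qc in shPpp1r17 lay inside that of shfLuc. Together the C1q genes held 87.0% to 89.4% of the summed TPM of the 9 genes in shPpp1r17 and 85.2% to 89.2% in shfLuc.

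Some markers of several cell types passed beside the complement genes, and their part in the results was not tested. Among all tested genes 3.39% passed as higher and 6.06% in either direction. In a bulk sample more cells of a type and more RNA per cell cannot be told apart. Of 12 microglia genes 3 rose and 0 fell, among them the receptor gene Gpr34 (log2 fold change 0.55, edgeR adjusted p = 0.0358) and the Fc receptor-like gene Fcrls (0.94, adjusted p = 0.0434). The summed level of the 12 genes was 346 to 463 CPM in shPpp1r17 and 263 to 334 CPM in shfLuc, and none was at 0 in any library. Others were close to level, such as the microglial gene Tmem119 at 9.17 ± 2.62 CPM in shPpp1r17 and 8.62 ± 2.51 CPM in shfLuc (SD, n = 4 each). The log2 fold change was 0.09 for Tmem119 and 0.17 for the fractalkine receptor gene Cx3cr1 (edgeR adjusted p = 0.861 and 0.505).

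Set against the mean log2 CPM of the 12 microglia genes in the same library, 4 of the 9 complement genes had every shPpp1r17 library above every shfLuc library, as did 0.877% of all tested genes on this scale. They are the 4 genes already separated in CPM, where the share of all tested genes was 7.05%. The list itself rose by 0.39 between the group means, and subtracting it lowers the difference of every gene by that amount. The smaller share can follow from this and is no separate support. The mean log2 CPM of the list itself was 4.52 ± 0.26 in shPpp1r17 and 4.14 ± 0.18 in shfLuc (SD, n = 4 each), with overlapping groups. Relative to it, C1qa was at 0.49, 0.32, 0.48 and 0.24 in shPpp1r17 1 to 4, and at 0.03, -0.33, -0.34 and -0.06 in shfLuc 1 to 4, on the log2 scale. The difference of the group means on this scale was 0.56 for C1qa, 0.58 for C1qb, 0.47 for C1qc and 1.07 for C3. The groups overlapped for C4b (0.92), C3ar1 (0.42), Serping1 (0.38), C5ar1 (0.37) and C2 (0.05).

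**Figure D3:**
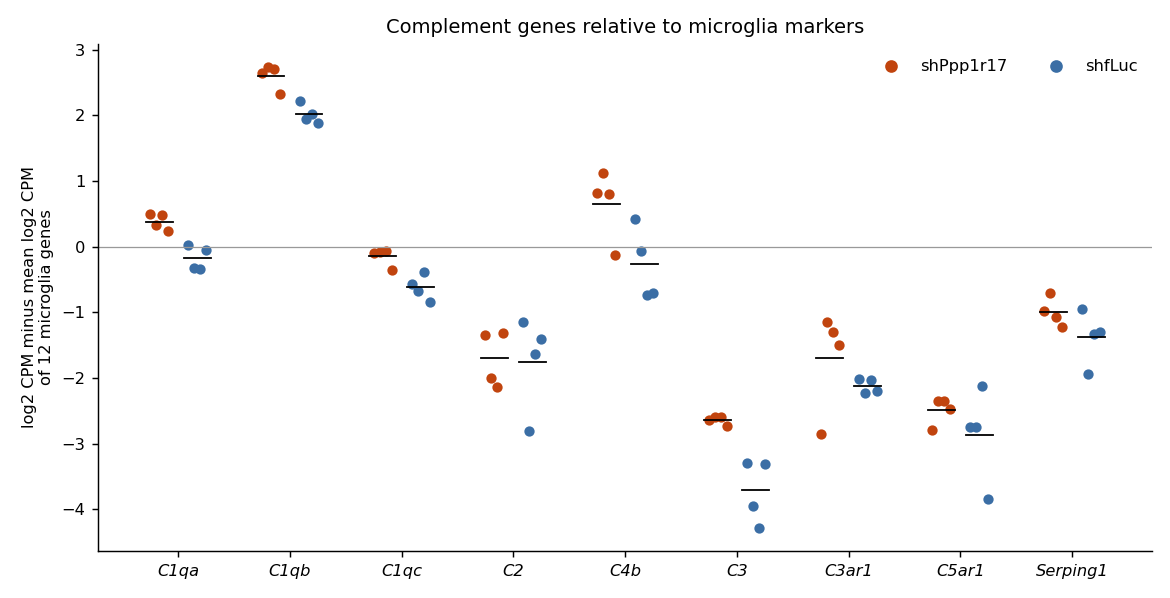
Log2 CPM of each complement gene minus the mean log2 CPM of 12 microglia genes in the same library (prior of 0.5 CPM), with shPpp1r17 to the left of shfLuc; points are libraries 1 to 4 from left to right and lines are means. C1qa, C1qb, C1qc and C3 are separated, the other genes overlap, and shPpp1r17 1 is the lowest library for C3ar1.

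Some genes of other marker lists passed as well, beside 3.39% of all tested genes as higher and 6.06% in either direction. The list sums overlapped between the groups for astrocytes, oligodendrocytes, endothelium and neurons. Of 11 genes of border macrophages, monocytes and neutrophils 7 were tested and 1 rose, the lysozyme gene Lyz2 (log2 fold change 2.42, edgeR adjusted p = 0.0141). The list summed to 34.2 to 153 CPM in shPpp1r17 and 14.3 to 33.7 CPM in shfLuc, with Lyve1, Ccr2, S100a8 and S100a9 at 0 in some libraries. Of 8 astrocyte genes 2 rose (Gfap at 1.82 and S100b at 0.29, with edgeR adjusted p-values of 0.0124 and 0.0341) and 1 fell (Slc1a3 at -0.46, adjusted p = 0.0320), with list sums of 3210 to 3610 CPM in shPpp1r17 and 3299 to 3639 CPM in shfLuc. All 5 red blood cell genes rose, and they summed to 640 to 1230 CPM in shPpp1r17 and 324 to 569 CPM in shfLuc. Of 7 B cell and plasma cell genes 2 rose (Jchain and Ighm), with sums of 121 to 1138 CPM in shPpp1r17 and 33.8 to 79.2 CPM in shfLuc, and Ms4a1 and Mzb1 among the genes at 0 in some libraries. Of 6 vascular fibroblast genes 1 rose, Dcn, with sums of 34.8 to 62.5 CPM in shPpp1r17 and 29.7 to 34.7 CPM in shfLuc. Of 6 oligodendrocyte genes 2 rose (Mobp and Cldn11), with sums of 1135 to 2063 CPM in shPpp1r17 and 1106 to 1163 CPM in shfLuc. Of 6 endothelial genes 1 rose (Ly6c1), with sums of 297 to 411 CPM in shPpp1r17 and 295 to 363 CPM in shfLuc. Of 9 neuronal genes 1 rose (Tubb3) and 2 fell (Syt1 and Slc17a6), with sums of 3700 to 4077 CPM in shPpp1r17 and 3780 to 3924 CPM in shfLuc.

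The rest of the complement system did not pass the threshold. Of 47 other complement genes 29 were tested and 0 passed in edgeR, with a median log2 fold change of 0.16. Of these 29 genes 11 had an unadjusted p under 0.05, as did 3913 of all 17339 genes tested. The other 18 complement genes, not tested, had at most 34 reads in a library. Among the proteases of the classical pathway C1ra, whose product C1r is the first protease activated after binding of C1q, had a log2 fold change of 0.82 (SE 0.41, edgeR adjusted p = 0.254), from 1.07, 1.48, 1.13 and 0.914 CPM in shPpp1r17 1 to 4 and 0.954, 0.341, 0.560 and 0.738 CPM in shfLuc 1 to 4. Only shPpp1r17 4 lay within the shfLuc range. In the lectin pathway, which starts at sugars, 2 of 8 genes were tested, the protease gene Masp1 at -0.34 (adjusted p = 0.517) and the collectin gene Colec11 at 0.41 (adjusted p = 0.694).

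The alternative pathway amplifies C3 cleavage, and 1 of its 3 genes was tested. The stabiliser gene Cfp stood at 3.61, 2.89, 3.78 and 2.77 CPM in shPpp1r17 1 to 4, and at 3.47, 3.24, 2.20 and 2.76 CPM in shfLuc 1 to 4, with overlapping groups and a log2 fold change of 0.16 (SE 0.24, edgeR adjusted p = 0.735). Cfb, the gene of factor B, was below the filter, with 27, 14, 34 and 7 reads in shPpp1r17 1 to 4 and 3, 1, 5 and 0 in shfLuc 1 to 4. Every shPpp1r17 library was above every shfLuc library in reads and in CPM, as it was in CPM for 7.05% of all tested genes. In the edgeR fit with no filter Cfb had an adjusted p of 0.0389, and that fit called 1445 of 30172 genes. Cfb was picked after its values were seen. No other complement gene below the filter passed in that edgeR fit, where Colec10 came next (adjusted p = 0.300). Cfd, the gene of factor D, was listed at 0 reads in all libraries, and these tables do not show whether that reflects its level or how its reads were counted. Of the 7 terminal components 1 was tested, C8g (0.20, edgeR adjusted p = 0.735).

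Most estimates were below 0 among membrane regulators and above 0 among receptors, and none of these genes passed. Over all genes tested 50.6% of the estimates were above 0. Of the 11 membrane regulators all were tested, 9 had a log2 fold change below 0, and the median was -0.17. Csmd1, which encodes a neuronal membrane protein that limits complement, stood at 13.5, 11.9, 11.1 and 11.7 CPM in shPpp1r17 1 to 4, and at 15.04, 15.4, 15.6 and 17.4 CPM in shfLuc 1 to 4. All shPpp1r17 libraries were below all shfLuc libraries, as for 1202 of all 17339 genes tested. The log2 fold change of Csmd1 was -0.39 (SE 0.12, edgeR adjusted p = 0.0621). Sez6, of a related neuronal family, had -0.41 (SE 0.13, edgeR adjusted p = 0.0751). Of the 3 soluble regulators tested, Vtn, the gene of vitronectin, had 0.33 (SE 0.14, edgeR adjusted p = 0.180), and Clu, the gene of clusterin, 0.01 (SE 0.06, adjusted p = 0.962), at 1057 ± 58.5 CPM in shPpp1r17 and 1054 ± 53.7 CPM in shfLuc (SD, n = 4 each). The largest of these estimates were in receptors, with 6 of 7 above 0. Itgax, the alpha chain gene of complement receptor 4, had 2.06 (SE 0.66, edgeR adjusted p = 0.0846), from 33, 66, 89 and 30 reads in shPpp1r17 1 to 4 and 21, 18, 1 and 5 in shfLuc 1 to 4. Calr, which encodes calreticulin, a chaperone that can also bind C1q at the cell surface, had 0.24 (SE 0.07, edgeR adjusted p = 0.0654). C5ar2, the second C5 fragment receptor gene, had every shPpp1r17 library above every shfLuc library, at 1.01, 2.61, 2.40 and 1.06 CPM in shPpp1r17 1 to 4 and 0.694, 0.640, 0.776 and 0.932 CPM in shfLuc 1 to 4 (log2 fold change 1.21, SE 0.41, edgeR adjusted p = 0.0980). Of the 29 other complement genes tested 2 were separated upward and 2 downward. Over all 17339 genes tested 1222 and 1202 were, a like share.

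**Figure D4:**
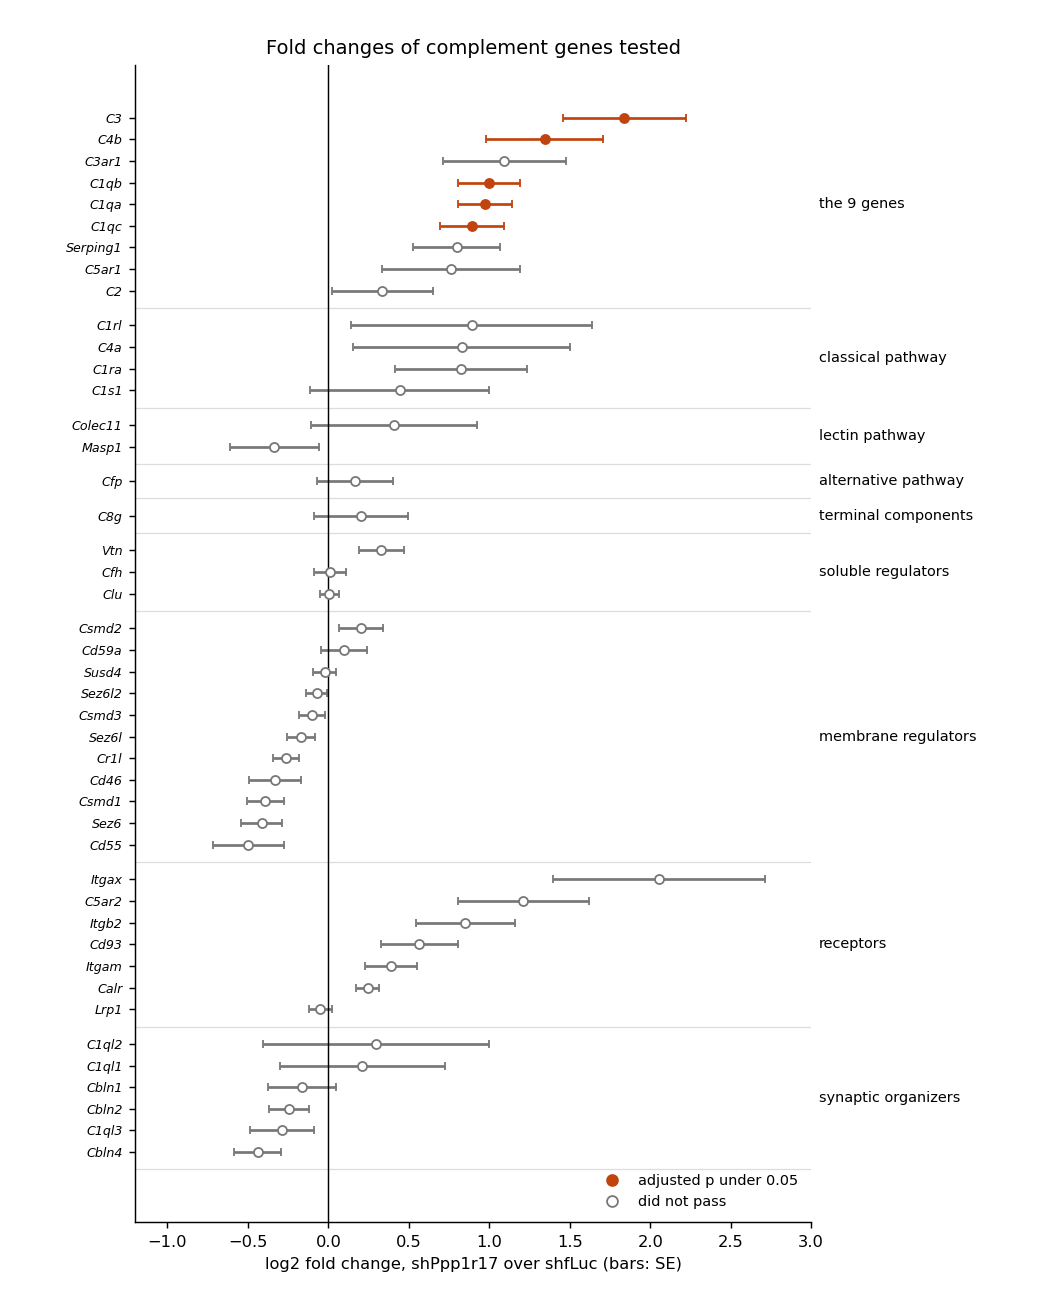
Log2 fold changes of shPpp1r17 over shfLuc with SE for the 9 genes and for the other complement genes and C1q-domain genes tested, grouped by role; filled points passed an adjusted p of 0.05 in edgeR. The filled points are C3, C4b, C1qb, C1qa and C1qc, and 9 of the 11 membrane regulators lie below 0.

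The C1q-domain proteins that neurons secrete at synapses share the globular domain of C1q without being part of the cascade. Of 7 such genes 6 were tested and 0 passed in edgeR, with a median log2 fold change of -0.20. An unadjusted p under 0.05 was found for 1 of the 6, and for 3913 of all 17339 genes tested. The log2 fold change was below 0 for 4 of the 6, and for 8570 of all 17339. Cbln4 had -0.44 (SE 0.15, edgeR adjusted p = 0.0951) and Cbln2 -0.24 (SE 0.12, edgeR adjusted p = 0.265), both encoding cerebellin-type organizers. Cbln4 was lower in shPpp1r17 1, 2 and 3, at 27.2, 21.8 and 23.5 CPM, than in any shfLuc library (33.6 to 40.2 CPM), and stood at 37.9 CPM in shPpp1r17 4.

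The genes whose profile over the 8 libraries lay nearest to C1qa, by root mean square distance of mean-centred log2 CPM among 12269 genes outside the complement lists, were Enkur (0.12), Meig1 (0.14), Zfas1 (0.14), Rpl32 (0.14) and Ifitm3 (0.15). C1qb lay at 0.14 and C1qc at 0.22, at ranks 5 and 64 among the 12269 genes. For C3 the nearest were Cxcl16 (0.28), Cnmd (0.28), Glipr1 (0.38), Ccl8 (0.43) and Gfap (0.44), and C1qa lay at 0.56. For C4b they were AW112010 (0.25), Bcl2a1b (0.30), Tmem140 (0.32), Mamdc2 (0.32) and H2-Q7 (0.32), and C1qb lay at 0.41. The profiles of C3 and C4b were 0.57 apart. Distances combine size and shape, so genes with like fold changes lie near each other whatever their level.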

How the data were processed

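Estimated counts, effective lengths and TPM of 55487 genes in each of the 8 libraries were deposited by the authors, per the file headers. Named in the submitters' processing notes, with neither version nor role, are bcl2fastq, DRAGEN, limma and edgeR. Genome build and annotation: not given in the sources used here. Per the labels' protocols, RNA came from a kit for small samples and libraries from a SMARTer kit. The expected counts deposited by the authors were rounded, filtered (minimum count 10, minimum total 15) and fitted with edgeR 4.0.16 in R 4.3.3, with TMM factors and group as the term. Benjamini-Hochberg adjustment covered 17339 genes. The deposited TPM, set by the authors, gave levels per length and an alternative test on log2(TPM + 1). SE was derived from the F statistic and the fitted fold change. The fit was also run on simulated counts with the same change in every shPpp1r17 library. That cannot show how the calls depend on single libraries. Libraries of 1 group differed beyond counting noise, by a chi-square of 7.48 to 41.1 per degree of freedom.

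Members, lists and tests were chosen with earlier results of these data known. The text names all 9 members and, of each other complement role, genes past the threshold and the 2 tested genes with the smallest p. C5ar2, Cfb, Cfd and individual markers were picked after their values were seen. Values of some single marker genes are not reported here. The 5 nearest profiles had an average log2 CPM of at least 1, predicted genes left out. Alternatives used DESeq2 1.42.0, limma 3.58.1, other scalings and filters, a length offset, robust dispersion, a replicate block and libraries left out.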

Additional observations from a re-analysis of the deposited data

Results flagged for a closer look

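C1qa in shfLuc 1, at 20.1 CPM, stood far from the other shfLuc libraries (13.5 to 13.8 CPM), with a gap of 0.947 of the group's range, above the 95% critical value of Dixon's test. It was the single such case among 20 groups of libraries examined (the 9 genes and Ppp1r17, each in both groups), and a test at that level passes about 1 in 20 groups by chance. Without shfLuc 1 the log2 fold change of C1qa was 1.13 (edgeR adjusted p = 0.00775).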

How the results depend on the processing

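All 9 genes kept a positive log2 fold change under the 21 alternatives run. The number of the 9 past the threshold was between 4 and 7 under other tools, scalings, filters, length offset, TPM and robust dispersion, and ran from 0 to 6 with single libraries left out. It was 0 without both shPpp1r17 2 and 3. Over all genes the count was 1050 in edgeR, 1903 with DESeq2, 1763 with limma voom and sample quality weights, 37 without both shPpp1r17 2 and 3, and 0 to 1548 with single libraries left out. With the replicate block 726 genes and 5 of the 9 passed. Same-numbered libraries correlated by -0.0116, 0.0354, 0.00569 and 0.116 in their deviations. Such correlations cannot decide whether the numbers pair libraries, and the labels do not state a pairing. On log2(TPM + 1) the share of calls that were higher was 38.8%, against 56.0%. Set against 6 microglia genes in place of 12, the differences of group means were 0.69 for C1qa, 0.71 for C1qb, 0.60 for C1qc and 1.20 for C3, each larger than with 12, and the order per length was unchanged with CPM over effective length. Low read counts limit the precision of C3, C5ar1, C4a, Colec11, Itgax and the genes below the filter. The other tools run with libraries left out were chosen after seeing the data. The cause of these changes was not tested.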
